A study of Mus musculus with 4 samples.

Results

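The immediate early transcription factors examined were Fos, Fosb, Jun, Junb, Jund, Egr1, Atf3, Ier2, Myc and Nr4a1, a list of names. They are 10 of the 8251 genes with a probe set of their own on the array. Of 12422 non-control probe sets, 15 were annotated to exactly 1 of the 10 genes, and each gene had at least 1. The samples were 4 ventricles of mice at baseline, each measured on its own one-colour Affymetrix oligonucleotide array. Sample 1 and sample 2 of the knockout group ("ERRa ko") came from mice without Esrra, the gene of the estrogen-related receptor ERRα, and sample 1 and sample 2 of the wild-type group ("ERRa wt") carried the receptor. The tissue was total ventricle, so a change in the number of cells of a type and a change in RNA per cell cannot be told apart. Age, sex, strain and the design of the Esrra allele were not given in the sources used here. Nothing in the labels says that the 2 samples of a group were separate animals, so the p-values cover the variation between these arrays only, some or all of which may be technical.

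Immediate early genes are transcribed within minutes of a stimulus from factors that are already present in the cell, without new protein synthesis. Fos and Jun family proteins pair through leucine zippers to form the AP-1 factor, Egr1 and Nr4a1 bind DNA as a zinc finger protein and as an orphan nuclear receptor, and Myc pairs with Max. In the heart these genes are known to respond to stretch, pressure load and adrenergic stimulation. ERRα is a nuclear receptor without a known natural hormone, and it controls many genes of fuel oxidation and mitochondria. The design compared transcript levels of ventricles with and without it before any stress.

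The labels were checked on Esrra first. Its probe set 102145_f_at gave signals of 83.6 and 55.2 in the knockout samples, against 2687.8 and 2828.1 in the wild-type samples, and fell by 4.65 on the log2 scale (limma adjusted p = 0.0441). Both knockout signals lay below the floor of 110 that was applied before log2. The second Esrra probe set, 103964_at, gave 922 and 1050.2 in knockout, against 8598.1 and 8038.5 in wild type (log2 -3.08, limma adjusted p = 0.179). Of 7453 probe sets tested, 1 passed the adjusted threshold of 0.05, which is 0.0134%, and it was 102145_f_at. The 6 cardiomyocyte marker genes with a probe set, such as Myh6 and Tnnt2, all had signals of at least 13481 on every array. The ratio of 5' to 3' signal of β-actin was 0.694 and 0.813 in knockout, against 0.966 and 0.909 in wild type. For Gapdh the ratios were 0.994 and 0.968 in knockout samples, against 1.04 and 1.01 in wild-type samples.

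Of the 15 immediate early probe sets, 10 had a mean signal over the 4 arrays of at least 350.6, the filter for the test, and they covered 9 of the genes. None of the 10 passed in limma over all probe sets (lowest adjusted p = 0.656). At an unadjusted p under 0.05 there were 2, for Fos and Junb, both higher in knockout, where 4.13% of all tested probe sets were higher and 6.79% differed in either direction at that level. Counted without a model, 2 of the 10 lay at least 1.5-fold higher in knockout with no overlap between groups, where 6.84% of all tested probe sets did, and 0 lay lower, where 4.12% did. Fos passed the filter only through its knockout signals, so these counts do not stand for the family. With no filter, 3 of the 15 probe sets were higher in this sense (Fos, Junb and Myc) against 11.5% of all 12422, and 0 were lower against 5.72%. With 2 arrays in each group, the smallest two-sided p that an exact permutation test allows is 0.333, so no such test was run.

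**Figure D1:**
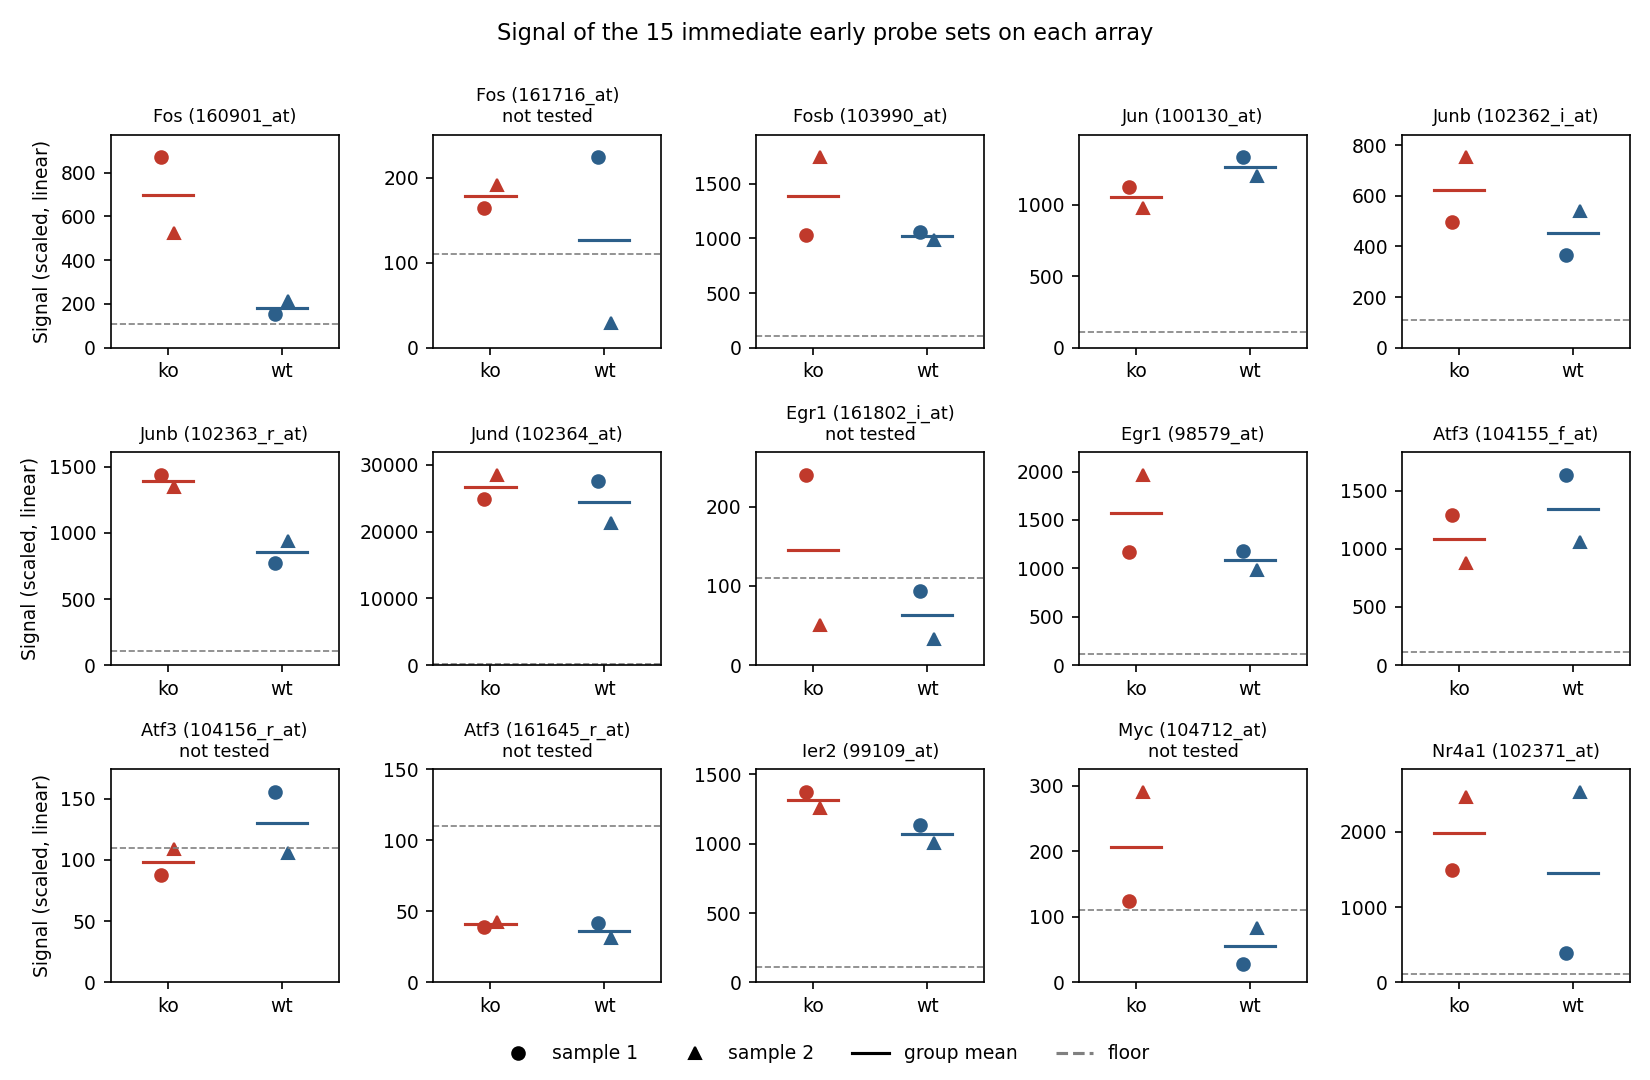
Scaled linear signal of the 15 immediate early probe sets in knockout (red, left) and wild type (blue, right), with circles for sample 1, triangles for sample 2, a bar at the group mean and a dashed line at the floor of 110. Both Fos 160901_at signals in knockout (524.4 and 869.9) lie above both in wild type, and Nr4a1 is low on wild-type sample 1 alone (390.1).

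Fos encodes the AP-1 partner that is low in resting tissue and is induced steeply. Its probe set 160901_at gave signals of 869.9 and 524.4 in knockout samples 1 and 2, against 153.4 and 212.6 in wild-type samples 1 and 2. The groups did not overlap, and knockout sample 1 was the highest array. The means were 697 ± 244 in knockout and 183 ± 41.9 in wild type (SD, n = 2 each), a ratio of 3.81. The log2 difference was 1.90 (SE 0.35, 95% interval 0.98 to 2.82), with an unadjusted p of 0.00367 and a limma adjusted p of 0.656. Because the wild-type signals were low, the difference shrank to 0.99 when the floor was raised to the 40th percentile. The second Fos probe set, 161716_at, was too dim to be tested. It gave 164.5 and 191 in knockout, against 223.6 and 28.9 in wild type, and its groups overlapped.

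Fosb, a close relative of Fos, gave 1030 and 1740.6 in knockout, against 1056.2 and 987.9 in wild type. Knockout sample 2 was high and the other 3 arrays lay close together, so the groups overlapped. The log2 difference was 0.39 (SE 0.32, 95% interval -0.45 to 1.23, limma adjusted p = 0.837). Without knockout sample 2 it was 0.012.

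Junb encodes the Jun protein that activates AP-1 sites more weakly than Jun and can oppose it. The probe set 102363_r_at gave 1440.1 and 1349 in knockout, against 770.1 and 935.9 in wild type. Both knockout arrays lay above both wild-type arrays, and each group was tight. The log2 difference was 0.72 (SE 0.22, 95% interval 0.14 to 1.29, unadjusted p = 0.0248, limma adjusted p = 0.694). The other Junb probe set, 102362_i_at, was made from the same transcript record and gave 495.3 and 752.1 in knockout, against 366.6 and 540.4 in wild type. Its groups overlapped, since knockout sample 1 lay below wild-type sample 2 (log2 0.46, SE 0.33). Affymetrix gave such suffixes to probe sets chosen under relaxed design rules, which applies to both Junb sets.

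Jun, the main AP-1 partner of Fos, lay the other way. It gave 1127.5 and 978.6 in knockout, against 1332.7 and 1204.3 in wild type. The groups did not overlap, but the difference was small (log2 -0.27, SE 0.21, 95% interval -0.83 to 0.29, limma adjusted p = 0.836). Among all tested probe sets, 16.7% were lower in knockout without overlap at any size. Jund, the Jun family member that is expressed without stimulation, gave 24935 and 28522 in knockout, against 27599 and 21304 in wild type. Its groups overlapped on a log2 difference of 0.14 (SE 0.24).

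The stretches upstream of Fos, Junb and Jun are shown because 1 of 2 Fos probe sets and 1 of 2 Junb probe sets were higher in knockout without overlap, and the single Jun probe set was lower. Each is the 250 bases before the annotated gene start, from RefSeq in build GRCm38.p6, read 5′ to 3′ on the strand of the gene. Capitals mark TGACG, the core of the cAMP response element bound by CREB and ATF proteins. The Fos stretch is chr12:85473640-85473889 on the plus strand, that of Junb chr8:84978749-84978998 on the minus strand and that of Jun chr4:95052223-95052472 on the minus strand.
Fos: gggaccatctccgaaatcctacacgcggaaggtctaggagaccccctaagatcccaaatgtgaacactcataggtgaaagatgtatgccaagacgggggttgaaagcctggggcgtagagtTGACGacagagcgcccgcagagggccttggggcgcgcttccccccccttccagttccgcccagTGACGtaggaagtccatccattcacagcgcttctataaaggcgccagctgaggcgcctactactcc
Junb: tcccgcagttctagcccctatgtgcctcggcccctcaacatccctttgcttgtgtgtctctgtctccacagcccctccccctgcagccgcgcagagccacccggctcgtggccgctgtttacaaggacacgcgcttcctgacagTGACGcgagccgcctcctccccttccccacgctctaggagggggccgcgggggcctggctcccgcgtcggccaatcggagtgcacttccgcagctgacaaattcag
Jun: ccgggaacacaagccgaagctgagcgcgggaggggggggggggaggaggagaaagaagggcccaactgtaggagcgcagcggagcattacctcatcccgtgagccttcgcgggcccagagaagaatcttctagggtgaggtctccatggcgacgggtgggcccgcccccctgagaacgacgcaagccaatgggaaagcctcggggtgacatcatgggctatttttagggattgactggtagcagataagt
TGACG occurs at 129 to 125 and at 66 to 62 bases before the start of Fos, and at 106 to 102 bases before the start of Junb. It does not occur in the Jun stretch on either strand.

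Upstream sequences of 7 of the 10 genes were searched. Ier2 and Myc had none in the table used, and Egr1 was left out because members on chromosome 18 were not searched. TGACG on either strand occurs in 5 of these 7 (Fos, Fosb, Junb, Atf3 and Nr4a1), and in 17.8% of all 32851 upstream stretches of this length. Nr4a1 holds it 4 times and Fosb and Atf3 once each, while Jun and Jund hold none. Fosb, Atf3 and Nr4a1 hold it, and the groups overlapped on their tested probe sets. The full palindrome TGACGTCA, which contains TGACG, the AP-1 site TGANTCA and the CArG box bound by serum response factor occur in 0 of the 7. They occur in 1.55%, 6.75% and 1.47% of all stretches. The element TNAAGGTCA, a binding sequence of ERR receptors, also occurs in 0 of the 7, and in 1.14% of all stretches. An absent match says only that these letters are not in this window.

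Egr1, the zinc finger factor induced by stretch and growth factors, had the same order of arrays as Fosb, with knockout sample 2 above the rest. Its probe set 98579_at gave 1171.5 and 1966.6 in knockout, against 1179 and 987.1 in wild type. The groups overlapped (log2 0.49, SE 0.33, 95% interval -0.37 to 1.36, limma adjusted p = 0.820). Knockout sample 2 was 1.68 times knockout sample 1 for Egr1 and 1.69 times for Fosb. Gaps of that size between the knockout arrays were found in 15.3% and 14.99% of all tested probe sets. A second Egr1 probe set, 161802_i_at, gave 240 and 50.8 in knockout, against 93.2 and 32.3 in wild type, and was too dim to be tested.

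Nr4a1, the orphan nuclear receptor Nur77, had the widest log2 gap within a group among the tested immediate early probe sets. It gave 1488.3 and 2461.9 in knockout, against 390.1 and 2521.3 in wild type. Wild-type sample 1 stood apart, and wild-type sample 2 was the highest of all arrays. The wild-type samples differed 6.46-fold, a gap reached by 0.322% of all tested probe sets. The log2 difference of the groups was 0.95 with an SE of 0.94 (limma adjusted p = 0.860). It turned to -0.40 without wild-type sample 1 and was 2.29 without wild-type sample 2.

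Ier2, a small nuclear protein of the early response, differed little but without overlap. It gave 1370.4 and 1256.4 in knockout, against 1136.5 and 1004.3 in wild type (log2 0.30, SE 0.21, 95% interval -0.25 to 0.84, limma adjusted p = 0.829). Among all tested probe sets, 20.7% were higher in knockout without overlap at any size. Atf3, a stress-induced factor of the ATF family that represses as a homodimer, gave 1288.5 and 876.1 in knockout, against 1637 and 1055.7 in wild type on 104155_f_at. The groups overlapped (log2 -0.31, SE 0.34), and the difference was 0.0092 without wild-type sample 1. Its other probe sets, 104156_r_at and 161645_r_at, had signals of 155.3 or less on every array and were not tested. The tested Atf3 values thus rest on 104155_f_at alone, which the setting without suffixed probe sets left out. Myc, which drives growth and ribosome production, was dim on 104712_at and also not tested. It gave 124 and 290 in knockout, against 27.9 and 82.7 in wild type, where both arrays lay below the floor. The knockout signal was at least 1.72-fold higher, taking the mean of log2 signals against the floor, and at least 1.13-fold without knockout sample 2.

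**Figure D2:**
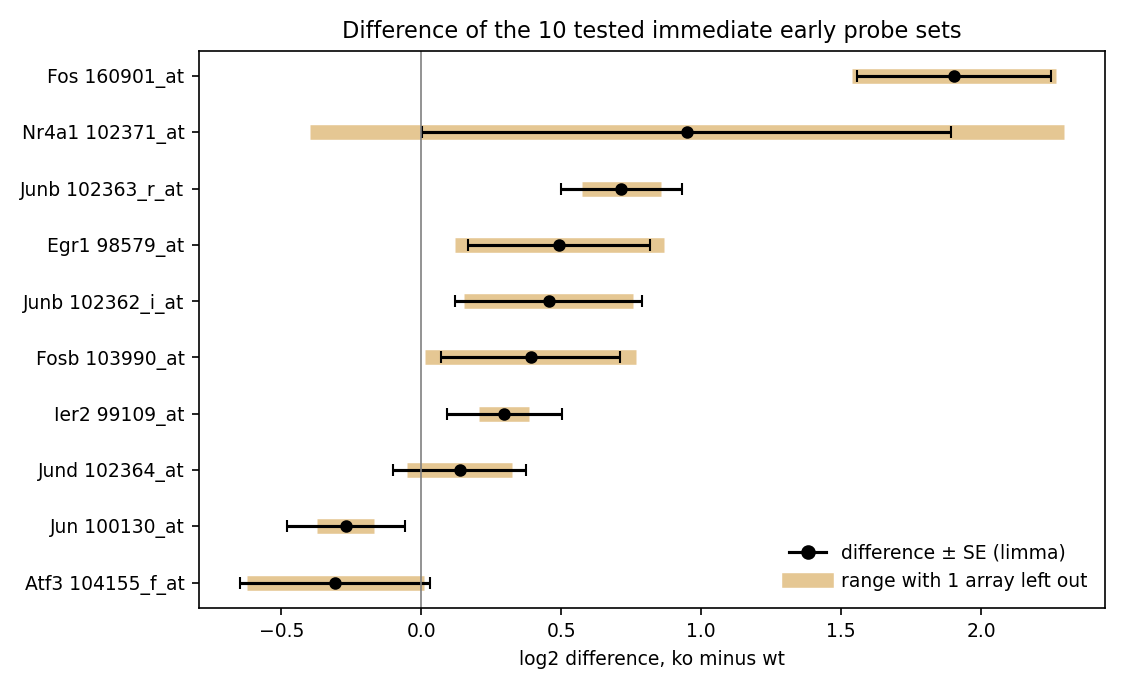
Log2 difference, knockout minus wild type, of the 10 tested immediate early probe sets, as points with the limma SE; bands span the values with each array left out in turn. Fos at 1.90 has a band from 1.54 to 2.27, while the Nr4a1 band runs from -0.40 to 2.29 and crosses 0. Fos passed the filter only through its knockout signals.

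The number of members that differed depended on single arrays. Without knockout sample 1, 5 of the 10 tested probe sets were at least 1.5-fold higher without overlap, those of Fos, Fosb and Egr1 and both of Junb, against 10.9% of all tested. Atf3 was then lower, against 9.2% of all. Without wild-type sample 2, 4 were higher, those of Fos and Nr4a1 and both of Junb, against 11.9% of all, and Atf3 was lower, against 7.41%. Without wild-type sample 1 the 2 that were higher were Fos and Egr1, against 11.7% of all, and without knockout sample 2 they were Fos and Junb, against 10% of all. The median log2 difference of the 10 tested probe sets was 0.42, against 0.03 for all tested, and it was 0.71 without knockout sample 1 and 0.14 without knockout sample 2. These counts and medians include Fos, which passed the filter only through knockout.

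Markers of other cell types were measured on the same arrays. All 10 tested fibroblast probe sets (6 genes, among them Col1a2, Dcn and Lum) had a higher mean in knockout, 9 of them without overlap (background 20.7% of all tested probe sets), and the sum over the 12 probe sets of the list was 94000 and 98910 in knockout, against 68830 and 78790 in wild type. All 4 tested atrial probe sets (Myl4, Myl7 and Nppa) were higher without overlap (background 20.7%), with sums over the list of 19820 and 19110 in knockout, against 12520 and 10120 in wild type. The smooth muscle list had sums of 22410 and 14300 in knockout, against 8035 and 6474 in wild type. Acta2 alone gave 18753 and 10916 in knockout, against 4135.2 and 2908.6 in wild type, and was higher without overlap (background 20.7%). The other 2 tested members, Tagln and Myh11, overlapped, with log2 differences of -0.08 and -0.0044. The difference in the smooth muscle sums thus rests on Acta2. Of 6 tested macrophage probe sets 6 had a higher mean and 2 did not overlap (background 20.7%), and the sums were 20160 and 19050 in knockout, against 17210 and 16450 in wild type. The dimmer macrophage sets that were not tested were mixed. Adgre1 103507_at was lower without overlap, at 176 and 202 in knockout, against 396.5 and 499.7 in wild type. Its other set, 161377_at, overlapped, and Cd68 162173_i_at and Lyz2 162309_at were higher without overlap. Of 6 tested endothelial probe sets 5 had a lower mean and 3 did not overlap (background 16.7%), with sums of 11990 and 11930, against 17120 and 13670. Erythroid sums overlapped, at 157600 and 223300 against 204400 and 148900, as did leukocyte sums, at 2013 and 2024 against 1942 and 2443. Most of the erythroid sum was Hba-a1. Of 3 tested erythroid probe sets 1, that of Slc4a1, was lower without overlap (background 16.7%). Of 2 tested leukocyte probe sets 1, that of Cd52, was higher without overlap (background 20.7%). No marker was at 0 on any array. The part of these lists, and of the 5' to 3' ratios, in the Fos and Junb differences was not tested.

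The list of other genes of the early response held 52 genes, 38 of which had 44 tested probe sets. In limma 0 of the 44 passed, and 1 had an unadjusted p under 0.05, where 6.79% of all tested probe sets did. At least 1.5-fold without overlap, 3 were higher (6.82%, against 6.84% of all tested probe sets) and 2 were lower (4.55%, against 4.12%). Of these 5, Maff and Egr2 passed the filter only through knockout and Gadd45b 102779_at only through wild type, so the counts say nothing about the list. The median log2 difference was -0.04, against 0.03 for all tested. Errfi1, a feedback inhibitor of EGF receptors, gave 276.3 and 527.2 in knockout, against 1014.1 and 1762.4 in wild type on 93974_at (log2 -1.81, SE 0.45, limma adjusted p = 0.694). On its second probe set, 93975_at, it gave 1722.9 and 1722 in knockout, against 1856.1 and 2572.2 in wild type. Egr2, a relative of Egr1, gave 412.8 and 736.5 in knockout, against 376.1 and 205.4 in wild type (log2 0.99, SE 0.44). Knockout sample 2 was the high array here too.

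Maff, a small Maf bZIP protein, gave 488.5 and 566.8 in knockout, against 109.6 and 387.2 in wild type (log2 1.35, SE 0.64). Its difference was 0.44 without wild-type sample 1, and 0.53 when signals were floored at the 40th percentile. Ier3, an early response survival factor, gave 4452.2 and 5336.6 in knockout, against 2180.6 and 4026.1 in wild type (log2 0.72, SE 0.36). In both, wild-type sample 1 was the low array, as for Nr4a1. Gadd45b, a stress and growth arrest gene, gave 452.3 and 232.1 in knockout, against 536.9 and 659.2 in wild type on 102779_at (log2 -0.88, SE 0.39). On 161666_f_at it gave 507.5 and 178.5 in knockout, against 250.9 and 548 in wild type, and the groups overlapped. Without wild-type sample 1 the list had 1 probe set higher and 10 lower, where 11.7% and 7.11% of all tested were. Without wild-type sample 2 it had 8 higher and 2 lower, where 11.9% and 7.41% of all were.

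The array with the highest signal was counted for each probe set. Wild-type sample 2 was the highest array for 24 of the 44 tested probe sets of the other early response genes, or 54.5%, against 23.1% of all tested probe sets. Among the 10 immediate early probe sets it was highest for 1, that of Nr4a1, while knockout sample 2 was highest for 4 (27.3% of all tested) and knockout sample 1 for 3 (26.3% of all tested). The difference between the lists was not tested. Examples, chosen after their values were seen, were Dusp1, a MAP kinase phosphatase, at 8214.9 and 7060.8 in knockout, against 5618.2 and 12806 in wild type. Cebpb, a bZIP factor, gave 3303.2 and 2924 in knockout, against 2990.3 and 6512.6 in wild type. Per1, a clock gene that also responds early to stimuli, gave 888.2 and 1022.3 in knockout, against 250 and 1828.5 in wild type. The wild-type samples thus lay on either side of the knockout samples for Dusp1 and Per1.

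**Figure D3:**
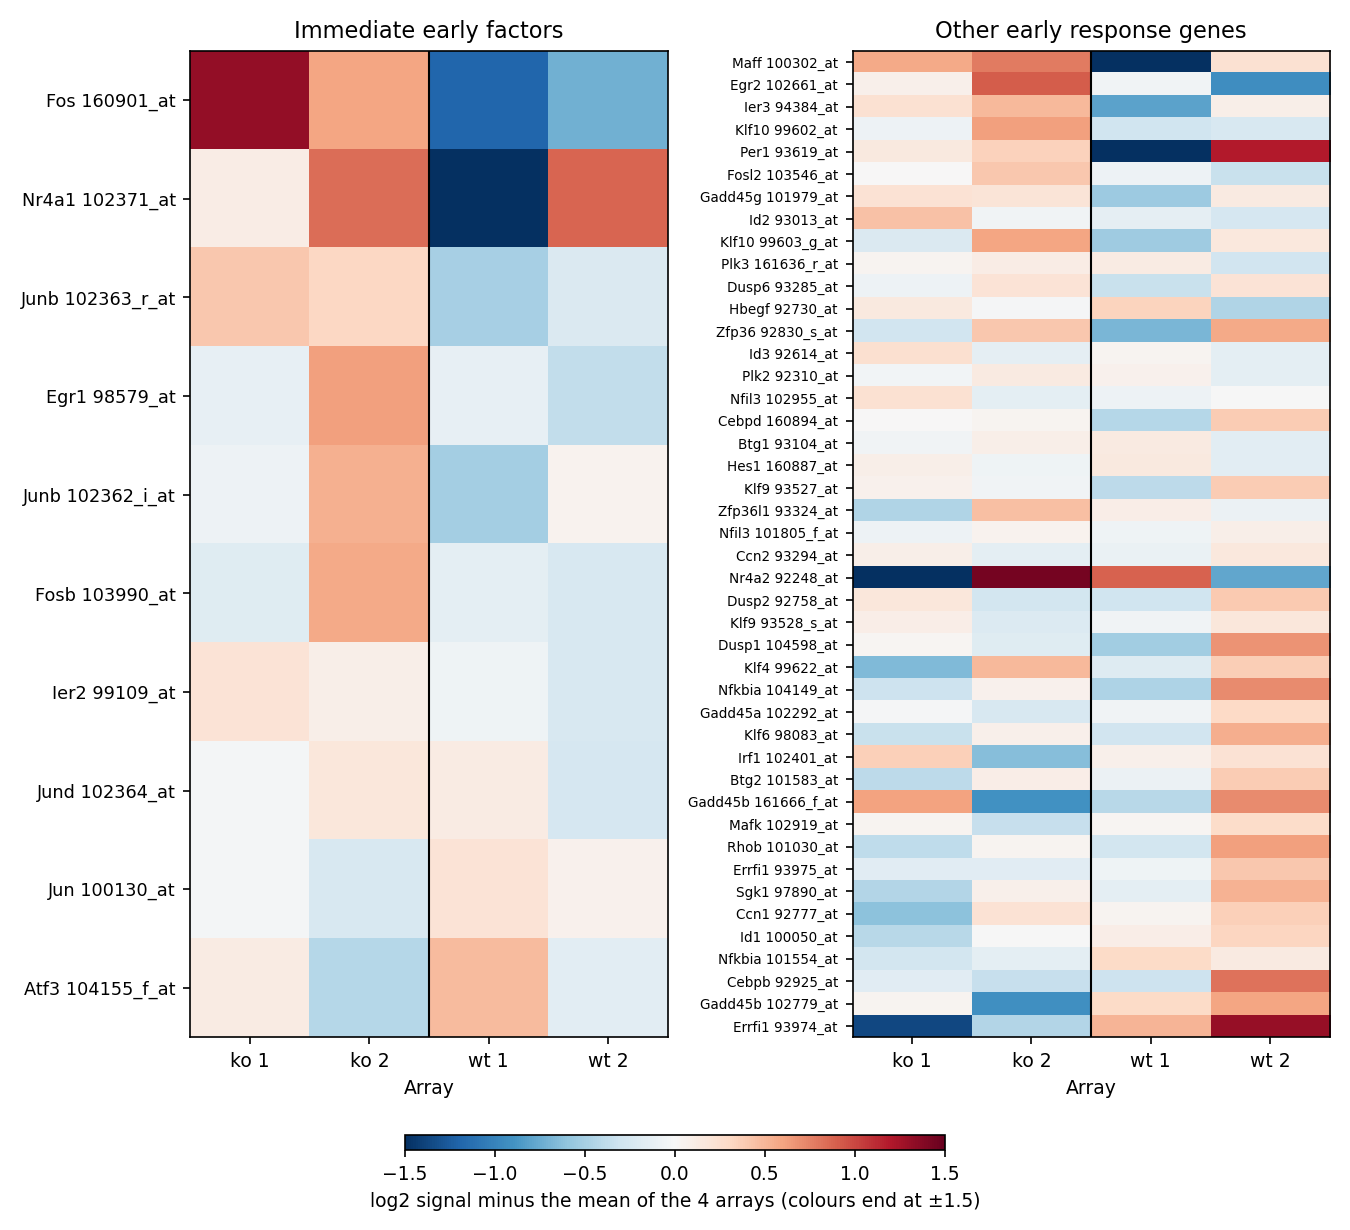
Log2 signal minus the mean of the 4 arrays for the 10 tested immediate early probe sets (left) and 44 probe sets of other early response genes (right), by array, with knockout samples left of wild-type samples. Wild-type sample 2 is the highest array in 24 of the 44 rows on the right and in 1 of the 10 on the left.

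Activators upstream of the early genes were represented by 17 tested probe sets of 14 genes. None passed in limma, and 2 had an unadjusted p under 0.05, where 6.79% of all tested probe sets did. At least 1.5-fold without overlap, 2 were higher (against 6.84% of all tested) and 0 lower (against 4.12%). Of the 2, Mapk9 passed the filter only through knockout, so the count says nothing about the list. Mapk9, the stress kinase JNK2 that phosphorylates Jun, gave 575.6 and 497.9 in knockout, against 313.1 and 364.1 in wild type (log2 0.66, SE 0.22, unadjusted p = 0.0320, limma adjusted p = 0.694). Mef2a, a muscle factor whose sites drive Jun and Nr4a1, gave 6096.6 and 7275.9 in knockout, against 3798.6 and 4635 in wild type on 93852_at (log2 0.67, SE 0.23, unadjusted p = 0.0387, limma adjusted p = 0.705). A dim second Mef2a probe set, 94133_r_at, gave 66.5 and 165.4 in knockout, against 60.9 and 182.4 in wild type. The median log2 difference of the list was 0.13.

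Partners and corepressors of the early factors had 13 tested probe sets, 1 for each gene. None passed in limma, and 2 had an unadjusted p under 0.05, where 6.79% of all tested probe sets did. At least 1.5-fold without overlap, 1 was higher (against 6.84% of all) and 2 were lower (against 4.12%). Of the 2 lower, Ddit3 passed the filter only through wild type, so the count says nothing about the list. Nab2 and Nab1 encode corepressors that bind Egr proteins, and their values lay on opposite sides. Nab2, itself a target of Egr1, gave 1035 and 1153.3 in knockout, against 803.8 and 583.6 in wild type (log2 0.67, SE 0.25, limma adjusted p = 0.728). Nab1 gave 959.2 and 422.2 in knockout, against 1411.6 and 1321.6 in wild type (log2 -1.10, SE 0.44, limma adjusted p = 0.744), with a difference of -0.51 without knockout sample 2 and -1.69 without knockout sample 1. Ddit3, the bZIP stress factor CHOP, gave 212.6 and 332.2 in knockout, against 872.1 and 539 in wild type (log2 -1.37, SE 0.37, limma adjusted p = 0.694). The median log2 difference of the list was 0.06.

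**Figure D4:**
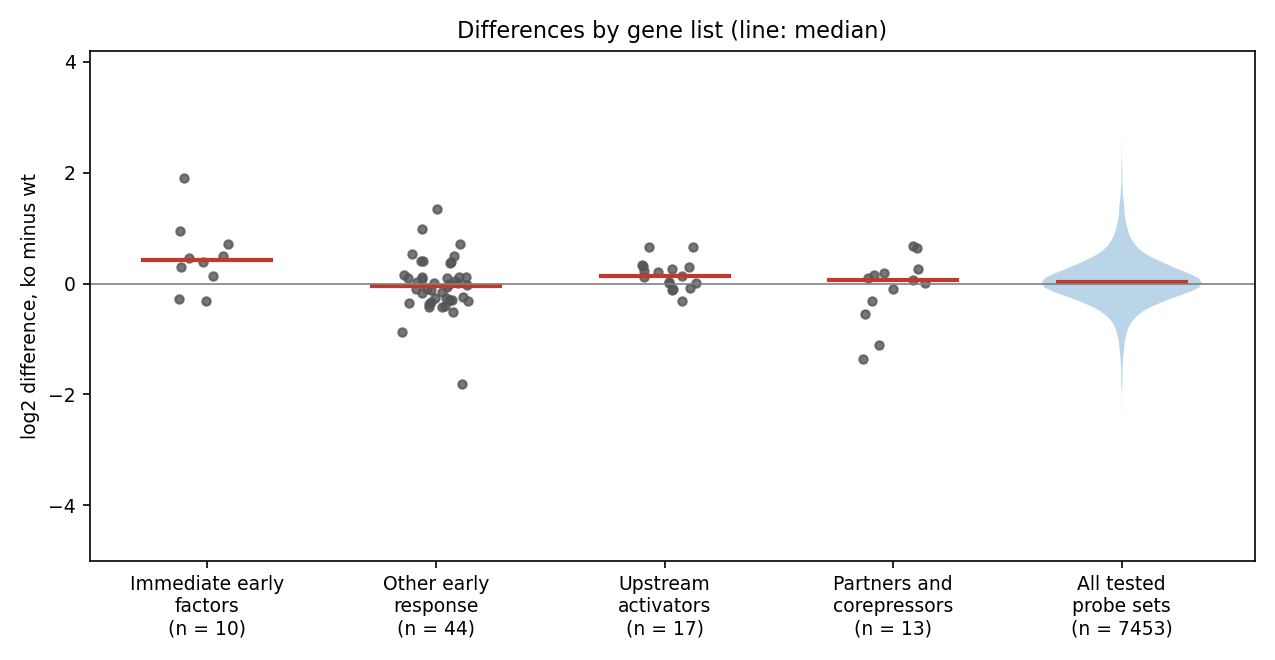
Log2 difference, knockout minus wild type, of the tested probe sets of each list (points) and of all 7453 tested probe sets (shaded outline), with a red line at the median. The medians are 0.42 for the immediate early factors, -0.04 for other early response genes, 0.13 for upstream activators, 0.06 for partners and 0.03 for all.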

How the data were processed

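Biotin-labelled cRNA of 4 ventricle samples was hybridized to one-colour arrays, per the labels' protocols. The deposited values are a linear intensity per probe set, scaled by array: the mean without the top and bottom 2% was 1501 on every array. The summary software is not given in the sources used here. The number of arrays limits the precision.

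The genotype in each title gave the group. Symbols came from the platform annotation, and 10839 of 10855 probe sets with 1 symbol matched RefSeq (GRCm38.p6). The 66 control probe sets and those with a mean under the 40th percentile (350.6) were left out. Signals under 110, the 20th percentile of all values, were raised to that floor before log2. Knockout was compared with wild type in limma 3.58.1 (R 4.3.3), without pairing, and p-values were adjusted over 7453 probe sets by Benjamini-Hochberg. The counts without a model required a ratio of mean signals of at least 1.5 and no overlap. The steps were tested on simulated data.

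The members and gene lists were chosen with earlier results of these data known. Named were Esrra, every member, and of the other lists probe sets past the threshold plus up to 6 per list with the lowest unadjusted p among those changed at least 1.5-fold without overlap; other names are marked. Alternatives changed the floor, the filter, the scaling, the variance prior, the block, the arrays and the probe set suffixes.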

Additional observations from a re-analysis of the deposited data

How the results depend on the processing

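No immediate early probe set passed in limma in the main setting or in any of 13 alternatives (lowest adjusted p 0.466, with no filter). With all 4 arrays kept, 1 or 2 had an unadjusted p under 0.05, where 6.79% of all tested did in the main setting. The count of members higher without overlap was 1 of 8 tested with the filter at the 60th percentile (Junb, against 3.64% of all). It was 1 of 7 tested without suffixed probe sets (Fos, against 6.05% of all). With an array left out it was 2 to 5 (against 10% to 11.9%). The count lower was 0 to 1 with an array left out (against 7.11% to 9.2%). For the other early response genes the count higher was 5 with no filter (against 11.5%). It was 1 with the filter at the 60th percentile (against 3.64%) and 1 to 8 with an array left out (against 10% to 11.9%). The count lower was 1 with the filter at the 60th percentile (against 2.9%) and 2 to 10 with an array left out (against 7.11% to 9.2%).

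Where an array was left out, the lone array of its group was assumed to vary like the other group. Of 10 tested immediate early probe sets, 7 kept the sign of their difference under every alternative run. With an array left out, Jund ran from -0.049 (without wild-type sample 2) to 0.32, Nr4a1 from -0.40 (without wild-type sample 1) to 2.29, and Atf3 from -0.62 to 0.0092 (without wild-type sample 1). Of 12 other named probe sets 11 kept their sign. Gadd45b 161666_f_at ran from -1.05 to 0.45 (without knockout sample 2), with 0.26 without wild-type sample 2.

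Over all probe sets, the calls were 0 with either other floor, with no filter and with the replicate block. They were 2 with the filter at the 60th percentile and with the trend and robust prior. Without suffixed probe sets there were 0 calls, but that setting removed Esrra 102145_f_at itself before the fit. Esrra 102145_f_at lost its call at log2 -5.34 and -3.02 (floors at the 5th and 40th percentiles), at -4.65 with no filter and at -4.65 with the replicate block, and at -4.68 to -4.61 with an array left out. Esrra 103964_at passed at -3.08 with the filter at the 60th percentile (adjusted p = 0.0156) and with the trend and robust prior (adjusted p = 0.0059). The cause was not tested. Same-numbered samples did not deviate together (r = 0.0113 across 7453 probe sets), so the block has no basis in the labels or the data, and it gave 0 member calls. Of all 1.5-fold differences without overlap, 62.4% were higher in knockout, and 48.6% after quantile normalization. Dim probe sets near the floor, such as those of Myc, limit what can be compared.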
